A study of Mus musculus with 3 samples.

Results

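Cathepsins, their inhibitors and other genes of the lysosome were described in macrophages, dendritic cells and mesenchymal cells of ectopic masses in mice. The 39 genes were listed by symbol for their known role, with no threshold on their values, and 39 of 39 were found once among the 31053 genes of the deposited tables. Lysosomes are acidic compartments that break down material taken up or made by the cell. Cathepsins are the proteases of that compartment, cystatins hold them in check outside it, a proton pump acidifies it, and glycosidases and lipases take sugars and lipids apart. The factors TFEB, MITF and TFEC belong to a single family of transcription factors, of which TFEB and MITF are known to switch lysosomal genes on. Macrophages are rich in lysosomes, and lysozyme, which cleaves bacterial cell walls, is a main secreted product of theirs.

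All 3 groups were masses that formed at implants of Matrigel, a basement membrane extract, in mice of the CD1 strain, and were taken on day 5. In the first group the Matrigel carried rhBMP2, a bone-inducing growth factor, and the mice received an antibody that neutralizes activin A, a signalling protein related to TGF-beta. The second group had the same rhBMP2 implant and control IgG, and the third had Matrigel alone. They are called the antibody, IgG and Matrigel libraries. The labels name no antibody or IgG for the Matrigel group and give neither the number of animals nor whether masses were pooled. Each group was 1 single-cell library, so there were no replicates, no test was made and no p-value is given. Antibody against IgG asks what neutralizing activin A does in an rhBMP2 implant. IgG against Matrigel sets rhBMP2 with control IgG against Matrigel with neither named, so the part of rhBMP2 and that of the IgG cannot be told apart. Both comparisons share the IgG library.

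The libraries held 38163880, 46317250 and 44252421 UMIs (antibody, IgG, Matrigel), where a UMI is a molecular tag that marks 1 captured transcript. After filtering, 5682, 5674 and 8542 cells were left, with medians of 3556, 4161 and 3360 UMIs. Between pairs of libraries, 7 to 19 cell barcodes were shared, and 0 were shared by all 3. Cells were sorted into classes by genes outside the 39. Macrophages had under 1% of their UMIs from Col1a1, Col1a2 and Col3a1 and a UMI of Csf1r or Adgre1. They numbered 3020, 3074 and 5555, dendritic cells 79, 128 and 146, and mesenchymal cells, with at least 2% collagen UMIs, 508, 1258 and 1797. The other 2075, 1214 and 1044 cells were in no class. The gates used 2 of 8 macrophage markers and 7 of 8 dendritic markers, so the classes were checked with the others. C1qa, which encodes a complement subunit of macrophages, stood at 2260, 2552 and 3159 CPM in macrophages and at 7.58, 7.59 and 12.3 CPM in mesenchymal cells. Irf8, a factor of dendritic cells and the single dendritic marker outside the gate, stood at 863, 1560 and 2763 CPM in dendritic cells and at 156, 201 and 168 CPM in macrophages. CPM are UMIs of a gene divided by all UMIs of the class in a library and scaled to counts per 1e6. Since each UMI stands for a transcript tagged at its 3′ end, CPM were not divided by transcript length. Intervals are exact 95% intervals that cover counting error only, not variation between animals, implants or library preparations.

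In macrophages the 39 genes took 3.76%, 3.52% and 4.07% of all UMIs (antibody, IgG, Matrigel). The shares in dendritic cells were 2.61%, 2.80% and 3.39%. Mesenchymal cells gave 0.535%, 0.492% and 0.673% of their UMIs to the same genes. The same 5 genes stood highest in macrophages of each library: Lyz2, Psap, Ctss, Ctsb and Cst3. Lyz2, the lysozyme of macrophages, reached 11390 CPM (11340 to 11441), 8978 CPM (8927 to 9028) and 11584 CPM (11536 to 11633). Psap, the precursor of the saposins that help lipid breakdown, stood at 3475, 3509 and 3653 CPM, and Ctsb, a cysteine protease of the lysosome, at 3122, 3244 and 4080 CPM. Cst3, which encodes the secreted inhibitor cystatin C, had 2307, 2777 and 3255 CPM. Without Lyz2 and Cst3, the share of macrophage UMIs was 2.39%, 2.34% and 2.59%, so it was lowest in the IgG library either way.

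**Figure D1:**
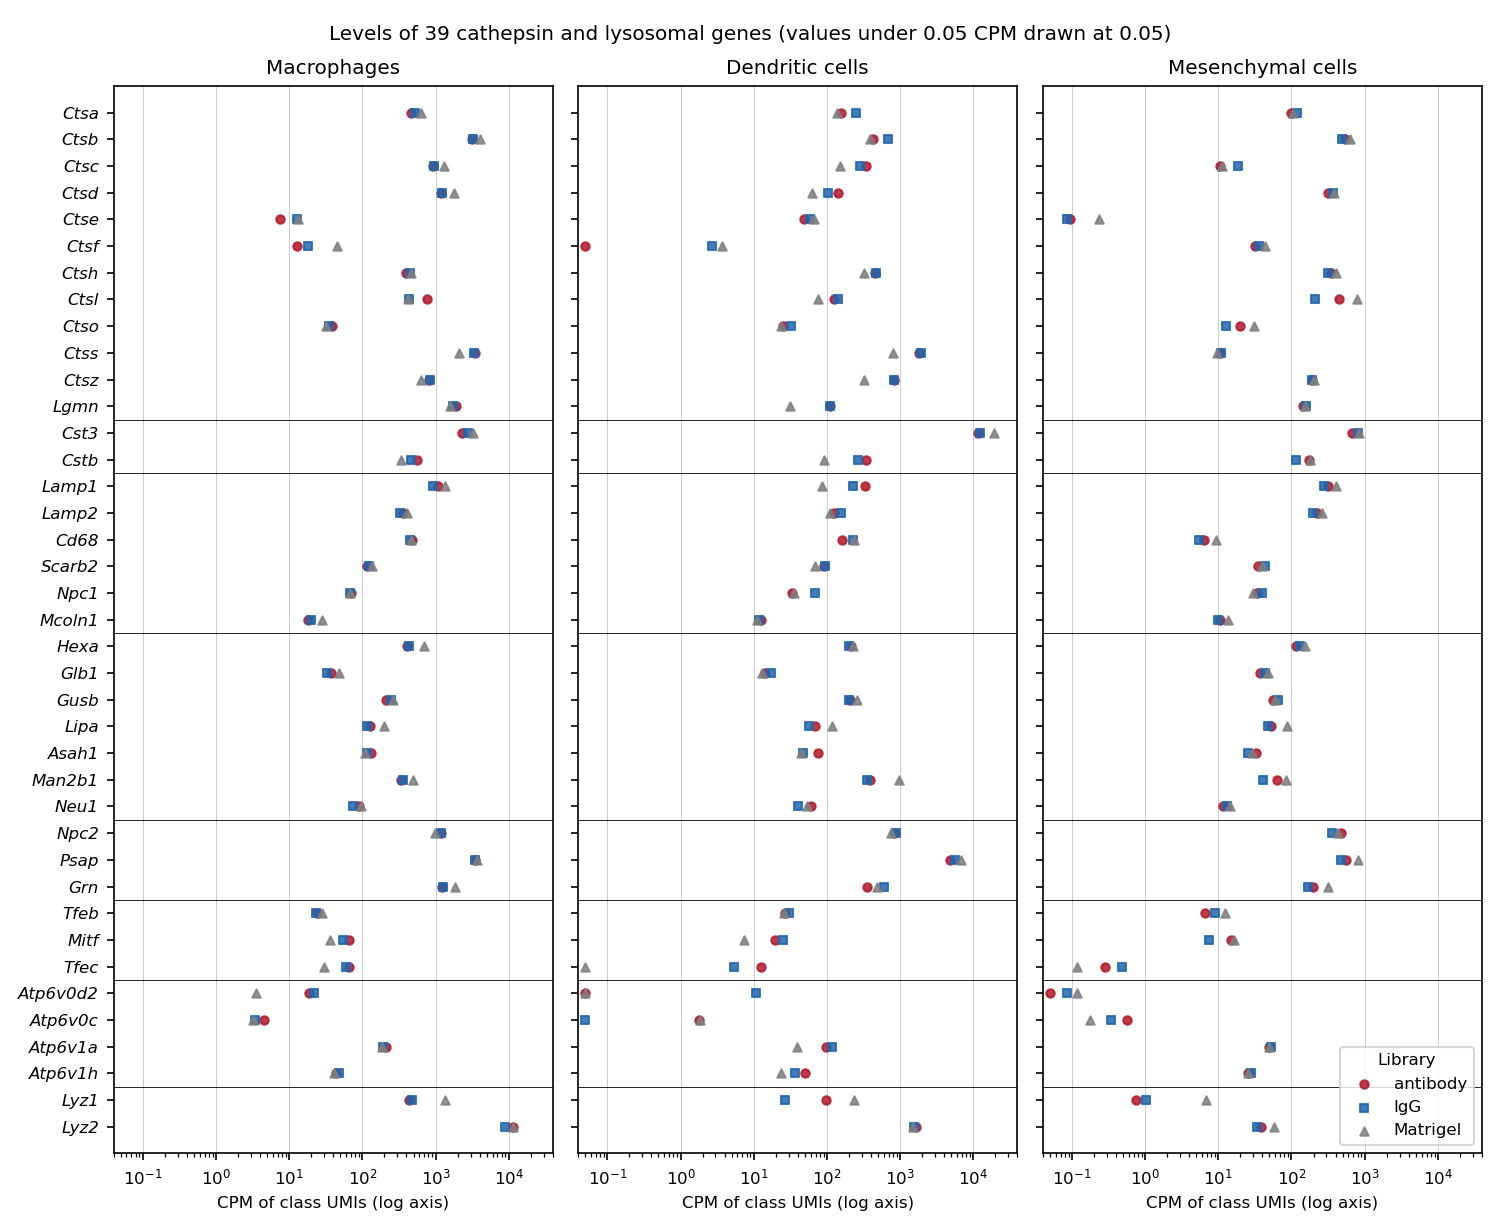
Levels of the 39 genes in CPM on a log axis, in macrophages, dendritic cells and mesenchymal cells, with 1 point per library (antibody, IgG, Matrigel). Horizontal lines part the roles, and values under 0.05 CPM are drawn at 0.05. Lyz2 lies highest among the macrophage points, between 8978 and 11584 CPM, and Cst3 highest among the dendritic cell points, between 11520 and 19278 CPM.

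Macrophages held more of nearly all these transcripts than mesenchymal cells of the same library. A gene counted as higher or lower once 1 level was at least 1.5 times the other, a size rule and not a test, where at least 10 UMIs were counted in 1 of the sums. By that rule 36, 36 and 34 of 39 were higher in macrophages (antibody, IgG, Matrigel), and 1 was lower in each. Over all genes, 29.1%, 28.2% and 27.7% were higher in macrophages and 33.3%, 35.4% and 33.9% lower. The median log2 ratio of the 39 genes was 2.00, 1.99 and 1.95, against -0.07, -0.09 and -0.08 for all genes measured. Ctss, which trims the invariant chain for antigen presentation, showed the widest gap among the abundant cathepsins, with 3500, 3354 and 2077 CPM in macrophages and 10.7, 10.8 and 9.51 CPM in mesenchymal cells. Cd68, a membrane protein of lysosomes used as a macrophage marker, had 476, 448 and 464 CPM in macrophages and 6.36, 5.47 and 9.28 CPM in mesenchymal cells.

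A few genes did not follow that order. Ctsh, an aminopeptidase, and Glb1, the lysosomal beta-galactosidase, did not pass the rule in any library. Ctsh stood at 392, 443 and 466 CPM in macrophages and at 350, 315 and 407 CPM in mesenchymal cells. Ctsf, a cysteine protease, was lower in macrophages of the antibody library (13.0 against 31.9 CPM) and of the IgG library (17.9 against 36.0 CPM), while the Matrigel library had 44.9 CPM in macrophages and 43.6 CPM in mesenchymal cells. Ctsl, a cysteine endopeptidase that works in lysosomes and is also secreted, was higher in macrophages of the antibody library, at 753 against 451 CPM, and of the IgG library, at 434 against 207 CPM. In the Matrigel library the order was the other way, at 422 CPM in macrophages and 782 CPM in mesenchymal cells, a ratio of 0.539 (0.525 to 0.555).

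Of the 39 genes, 10 stood in mesenchymal cells under 10% of their level in another class in all 3 libraries: Ctsc, Ctse, Ctss, Lgmn, Cst3, Cd68, Tfec, Atp6v0d2, Lyz1 and Lyz2. Free RNA in the droplets can give UMIs in cells that do not make a transcript, and how much of these levels it gave was not tested. The 10 genes were not alike in this. Cst3 was under 10% only beside dendritic cells and stood at 660, 814 and 843 CPM in mesenchymal cells, and Lgmn, at 145, 158 and 153 CPM, lay near the 10% limit beside macrophages. Lyz2 lay far below it and had 38.8, 34.2 and 58.4 CPM in mesenchymal cells, where 4.25% (2.65 to 6.43), 3.06% (2.17 to 4.17) and 5.86% (4.81 to 7.07) of cells thinned to 1000 UMIs had a UMI. In thinned macrophages the shares were 89.4%, 89.0% and 98.9%. Differences between libraries in the 10 genes are given below for mesenchymal cells, but were not read as changes in those cells.

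Dendritic cells differed from macrophages of the same library in a more mixed way. Macrophages were higher for 26, 26 and 30 of 39 genes (antibody, IgG, Matrigel) and lower for 2, 3 and 4. Of all genes 33.0%, 29.4% and 38.8% were higher and 20.6%, 16.9% and 18.6% lower. A gene could meet the minimum of UMIs through macrophages alone, so these counts include genes with few UMIs in dendritic cells. In the antibody library Atp6v0c had 79 against 1 UMIs and Ctso 667 against 14. Both counted as higher, with intervals of the ratio, 0.445 to 102 and 0.912 to 2.83, that took in 1. Ctsf, at 226 against 0 UMIs, had an interval from 1.965 upward. Lgmn, the asparaginyl endopeptidase that activates other cathepsins, had 1895, 1720 and 1568 CPM in macrophages and 110, 109 and 31.3 CPM in dendritic cells. Cst3 was lower in macrophages than in dendritic cells in each library: dendritic cells held 11520, 12290 and 19278 CPM, between 4.43-fold and 5.92-fold the macrophage level. Ctse, an aspartic protease of endosomes, was also lower in macrophages, at 7.46, 12.9 and 13.3 CPM against 47.9, 58.4 and 66.4 CPM in dendritic cells. Psap passed the rule in the IgG and Matrigel libraries, at 3509 and 3653 CPM in macrophages against 5573 and 6839 CPM in dendritic cells.

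With activin A neutralized, macrophages differed in 2 of the 39 genes past 1.5-fold: Ctsl was higher and Ctse was lower. Among all 12905 genes measured, 7.07% were higher and 12.1% lower, or 19.2% in either direction, and among the 9248 genes with at least 100 UMIs in 1 of the sums the share was 9.18%. Ctsl had 753 CPM (740 to 766), 434 CPM (423 to 446) and 422 CPM (413 to 431) in the antibody, IgG and Matrigel libraries, a ratio of 1.73 (1.68 to 1.79) for antibody over IgG. The antibody library alone was high, and the other 2 lay close together. After thinning, 45.0% (43.2 to 46.8), 31.8% (30.1 to 33.5) and 31.0% (29.7 to 32.2) of macrophages had a Ctsl UMI, while 79.1%, 62.0% and 58.4% had one unthinned, where the median cell held 4821, 3634 and 3076 UMIs. Mesenchymal markers summed to 174, 584 and 506 CPM in macrophages, against between 56915 and 78445 CPM in mesenchymal cells, and their part in the Ctsl difference was not tested. Ctsl (ENSMUSG00000021477) lies at chr13:64359337-64370890 on the minus strand of GRCm38, the assembly that mm10 stands for.

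Ctse stood at 7.46 CPM (6.24 to 8.86), 12.9 CPM (11.02 to 14.9) and 13.3 CPM (11.7 to 15.02), a ratio of 0.581 (0.459 to 0.733) for antibody over IgG. Its level in macrophages rests on few cells, since 1.06%, 1.49% and 1.32% of thinned macrophages had a UMI. The median log2 ratio of the 39 genes was -0.01, with 19 above and 20 below a ratio of 1, against -0.12 for all genes. That shift of the median gene, -0.12 log2 for antibody over IgG in macrophages, exceeds 0.1, and relative to it Ctsl lies still farther up. Other member ratios in this comparison ran within 1.5-fold. Ctsl alone among the 12 proteases passed upward, and Ctsb, Ctsd, Ctsz and Lgmn stood at 3122 against 3244, 1203 against 1233, 811 against 850 and 1895 against 1720 CPM. The cystatins Cst3 and Cstb were at 2307 against 2777 and 557 against 460 CPM.

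**Figure D2:**
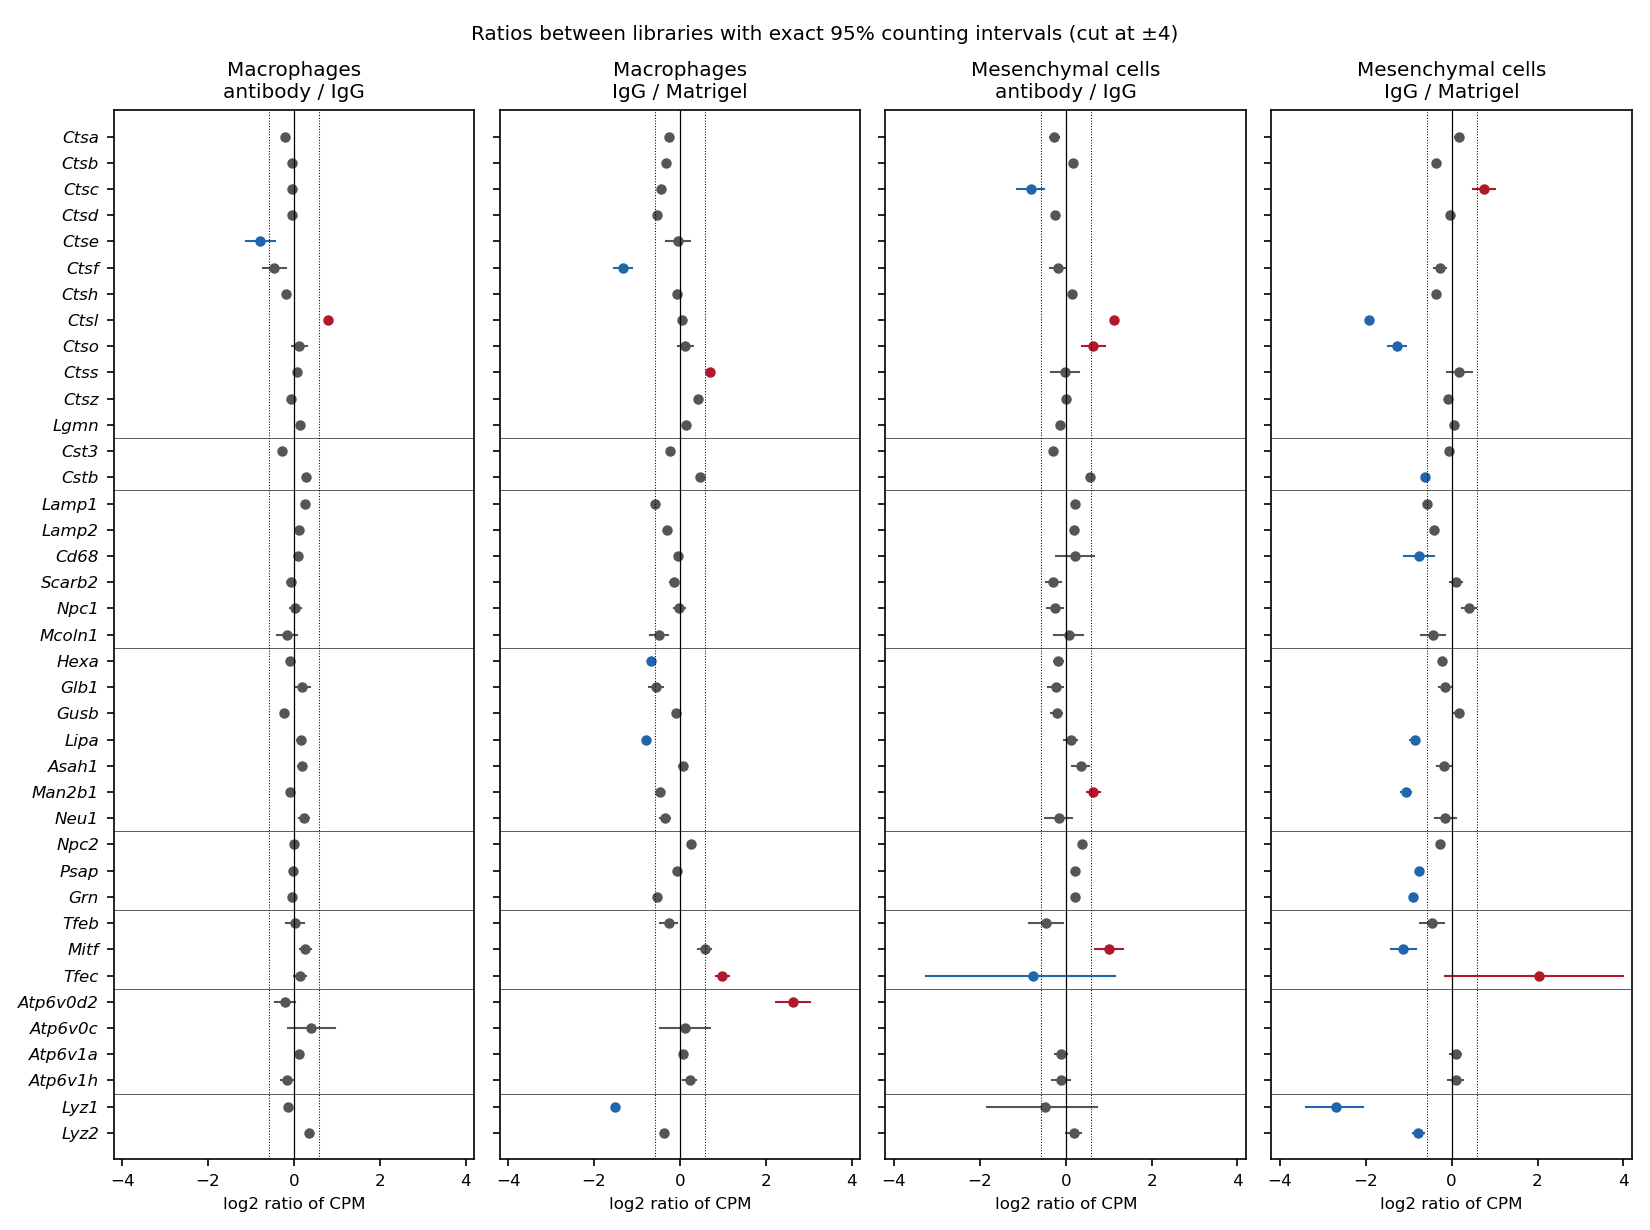
Log2 ratio of CPM for the 39 genes in 4 comparisons, antibody over IgG and IgG over Matrigel, in macrophages and mesenchymal cells, with exact 95% counting intervals. Dotted lines mark 1.5-fold either way, red points are higher and blue points lower past it, and genes under 10 UMIs in both sums have no point. In macrophages Ctsl (0.79) and Ctse (-0.78) alone pass for antibody over IgG, and in mesenchymal cells 11 blue points appear for IgG over Matrigel.

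Between the IgG and Matrigel libraries, macrophages differed in 7 of 39 genes, 3 higher and 4 lower, where 26.5% of all 13124 genes measured passed the rule, 13.0% higher and 13.5% lower, and 17.3% of those with at least 100 UMIs. The share of members was near that background. Ctss had 3354 CPM (3323 to 3385) in the IgG library and 2077 CPM (2056 to 2097) in the Matrigel library, a ratio of 1.61 (1.59 to 1.64), and the antibody library was at 3500 CPM. Both rhBMP2 libraries thus lay high and close together. Tfec, a relative of TFEB found mainly in macrophages and osteoclasts, had 66.3, 60.01 and 30.2 CPM in the antibody, IgG and Matrigel libraries, a ratio of 1.99 (1.79 to 2.22) for IgG over Matrigel. Mitf stood at 66.2, 55.0 and 36.7 CPM, and its ratio of 1.499 (1.351 to 1.664) for IgG over Matrigel fell just short of the rule. Tfeb stood at 23.8, 23.3 and 27.9 CPM, a ratio of 0.834 (0.723 to 0.960) that did not pass.

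Atp6v0d2, a proton pump subunit known from osteoclasts and from macrophages that fuse, had 18.8, 21.6 and 3.48 CPM, a ratio of 6.21 (4.75 to 8.22) for IgG over Matrigel. Its UMIs sat in few cells: 2.65%, 1.85% and 0.918% of macrophages had one, and 10 cells held 61.9%, 65.0% and 38.8% of them. Where both Csf1r and Adgre1 were required of a macrophage the ratio was 1.66, and with each cell weighted equally it was 2.29. The 5 osteoclast markers summed to 519, 433 and 59.4 CPM in macrophages. Mmp9 gave the largest part of the antibody sum, with 247.5, 114.6 and 29.69 CPM in the antibody, IgG and Matrigel libraries. Ctsk, the collagen-degrading cathepsin of osteoclasts, had 120, 133 and 4.52 CPM. Its level in mesenchymal cells was higher in each library, at 138.4, 151.9 and 211.5 CPM. In macrophages Acp5 had 129, 163 and 24.4 CPM, and Ocstamp 22.7, 21.6 and 0.831 CPM. Calcr, the calcitonin receptor of osteoclasts, was at 0, 0.0735 and 0 CPM. The part of these 5 markers in the Atp6v0d2 difference was not tested.

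The 4 genes lower in IgG macrophages were Lyz1, Ctsf, Lipa and Hexa. Lyz1, the second lysozyme gene, had 431 CPM (422 to 441), 477 CPM (466 to 489) and 1354 CPM (1338 to 1371) in the antibody, IgG and Matrigel libraries, a ratio of 0.352 (0.343 to 0.362) for IgG over Matrigel. Only the Matrigel library was high. After thinning, 9.97%, 10.7% and 23.4% of macrophages had a Lyz1 UMI. Lyz1 (chr10:117287797-117292868, minus strand) and Lyz2 (chr10:117277331-117282321, minus strand) are neighbouring genes of similar sequence, so how reads were divided between them is uncertain, and the same holds for Atp6v0c, which has related copies elsewhere in the genome and stood at only 4.54, 3.45 and 3.17 CPM.

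Ctsf had 13.0, 17.9 and 44.9 CPM, a ratio of 0.398 (0.343 to 0.459) for IgG over Matrigel. Lipa, the lysosomal acid lipase that frees cholesterol, had 129, 116 and 199 CPM, a ratio of 0.581 (0.548 to 0.617). Hexa, which encodes a subunit of beta-hexosaminidase, had 410, 437 and 700 CPM, a ratio of 0.625 (0.606 to 0.644). In all 3 genes the Matrigel library stood above both rhBMP2 libraries. The 6 membrane proteins had ratios below 1 without passing the rule, among them Lamp1, an abundant lysosomal membrane glycoprotein, at 1087, 911 and 1349 CPM. The median log2 ratio of the 39 genes was -0.09, and that of all genes -0.01.

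Macrophage subsets were set apart by a UMI of Lyve1, Ear2, Arg1 or Hopx, none of which is among the 39. A cell could fall in more than 1 subset. Lyve1, a marker of resident tissue macrophages, was found in 489, 183 and 1149 macrophages, Ear2 in 207, 276 and 1086, Arg1, which encodes arginase, in 1842, 1369 and 394, and Hopx in 1078, 553 and 911. In 636, 1216 and 2811 macrophages none of the 4 was detected. Cells with a UMI of one of these genes were compared with the other macrophages of the same library. Their median depth was higher, except for Arg1 in the Matrigel library, where it was 2716 against 3098 UMIs.

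Macrophages with a Lyve1 UMI held more of a set of proteases and lysosomal proteins in all 3 libraries. In the antibody, IgG and Matrigel libraries 6, 8 and 7 of 39 genes were higher and 3, 5 and 2 lower, where 6.76%, 11.7% and 11.1% of all genes were higher and 18.5%, 21.2% and 13.1% lower. Ctsb, Ctsd, Ctsl, Grn and Lamp1 passed upward in each. Ctsb had 4803 against 2697 CPM in the antibody library, 5177 against 3092 CPM in the IgG library and 5464 against 3615 CPM in the Matrigel library. Grn, the progranulin precursor that lysosomes process, had 1788 against 1091, 1989 against 1206 and 2602 against 1583 CPM. Lyz1 was lower, at 125 against 509, 232 against 497 and 283 against 1715 CPM.

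Macrophages with an Ear2 or a Hopx UMI showed the opposite order for several of these genes. With Ear2, 3, 4 and 4 genes were higher and 8, 11 and 18 lower, where 9.66%, 6.39% and 10.2% of all genes were higher and 22.6%, 27.6% and 28.0% lower. The share of members lower with Ear2 was near that background in the antibody and IgG libraries and above it in the Matrigel library. With Hopx, 2, 2 and 3 were higher and 9, 9 and 14 lower, where 8.57%, 8.0% and 9.71% were higher and 16.6%, 17.6% and 25.7% lower. Lgmn had 855 against 2007 CPM with and without Ear2 in the antibody library, 824 against 1852 CPM in the IgG library and 313 against 1987 CPM in the Matrigel library. With and without Hopx it had 814 against 2583, 594 against 2028 and 399 against 1878 CPM. Ctsl with Ear2 stood at 293 against 802, 153 against 476 and 127 against 520 CPM. Lyz1 was the gene with the largest ratio upward: 1778 against 286, 2250 against 216 and 3994 against 475 CPM with Ear2, and 644 against 296, 1349 against 238 and 3698 against 734 CPM with Hopx. Psap was also higher with Ear2, at 5758 against 3228, 5362 against 3236 and 5215 against 3132 CPM.

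Macrophages with an Arg1 UMI differed in fewer genes: 3, 1 and 0 were higher and 3, 3 and 1 lower, where 6.16%, 7.56% and 9.30% of all genes were higher and 11.5%, 11.1% and 17.6% lower. In the antibody library Tfec had 82.6 against 37.2 CPM, a ratio of 2.22 (1.92 to 2.58), and in the IgG library 85.5 against 38.04 CPM, a ratio of 2.25 (1.94 to 2.61). In the Matrigel library it had 20.7 against 30.8 CPM, a ratio of 0.673 (0.436 to 0.996) from 26 UMIs with Arg1. Lyz1 was lower with Arg1 in the antibody library (254 against 747 CPM) and the IgG library (237 against 685 CPM), and stood at 1484 against 1345 CPM in the Matrigel library. Atp6v0d2 was low with Arg1 in the rhBMP2 libraries, at 6.54 against 40.7 and 9.83 against 31.8 CPM. Macrophages with none of the 4 genes had 67.6, 45.5 and 4.58 CPM, the highest of the 5 subsets in the rhBMP2 libraries. Those levels came from 199, 209 and 37 UMIs. Most Atp6v0d2 UMIs in macrophages of the rhBMP2 libraries sat in few cells, as given above. How those cells were spread over the subsets was not tested.

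**Figure D3:**
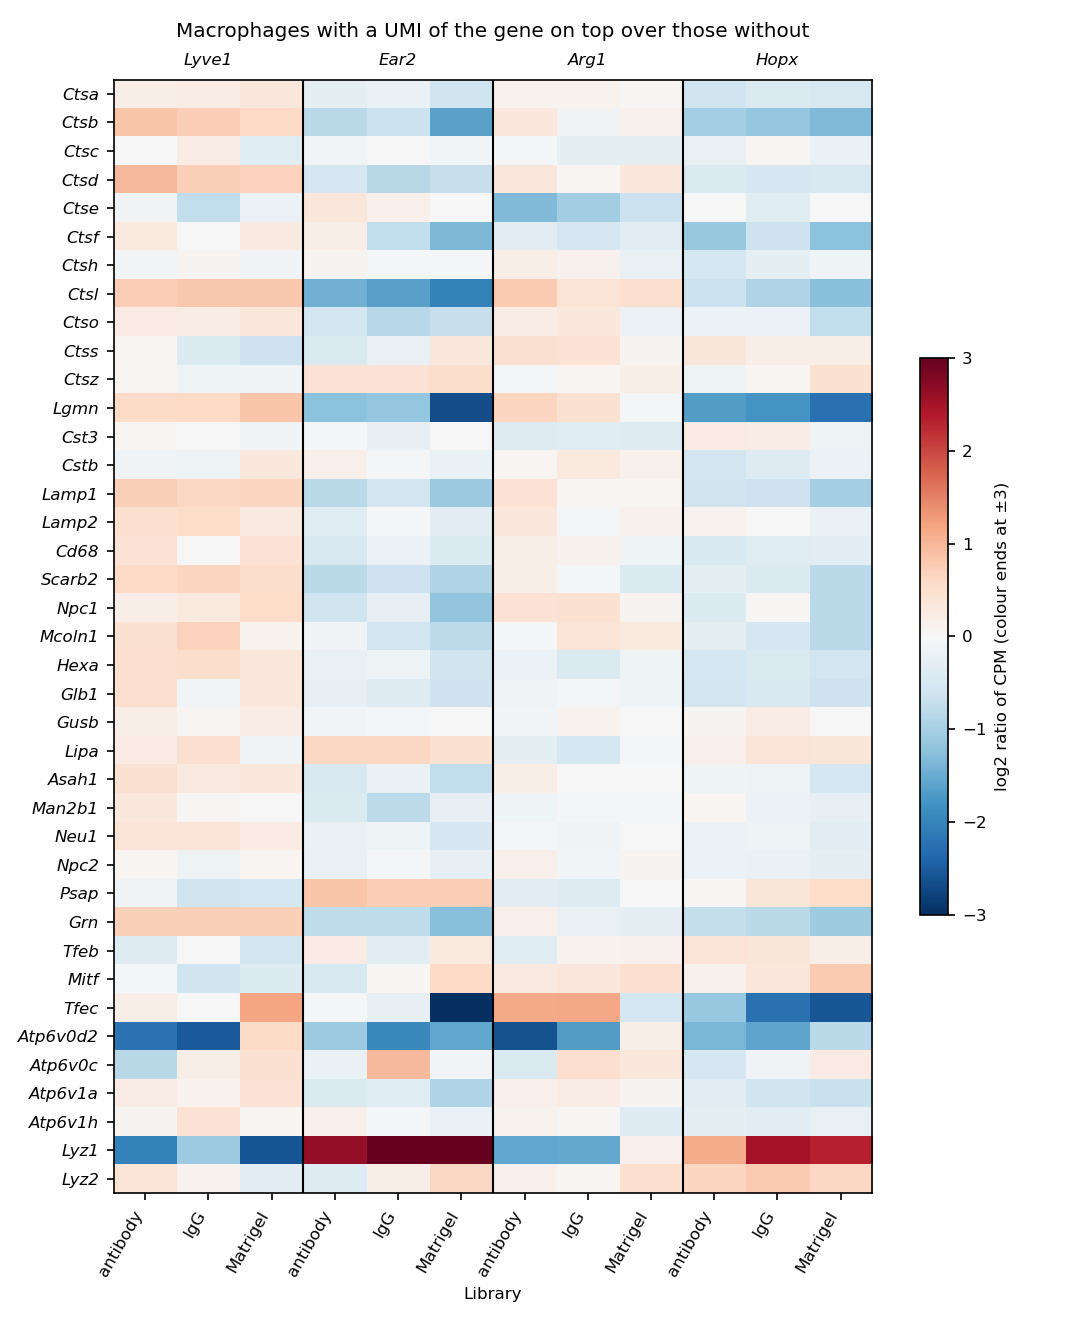
Log2 ratio of CPM in macrophages with a UMI of Lyve1, Ear2, Arg1 or Hopx over macrophages without one, for the 39 genes in the antibody, IgG and Matrigel libraries. Red is higher and blue lower with the UMI, and colours end at 3 either way. Ctsb, Ctsd, Ctsl, Grn and Lamp1 are red with Lyve1 in each library, and Lyz1 is red with Ear2 (2.64, 3.38 and 3.07) and with Hopx.

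Promoter letters were read for the members, and their part in the differences between subsets was not tested. The letters CACGTG are the core of the element that TFEB, MITF and their relatives are known to bind. RefSeq promoters of build GRCm38.p6, from 250 bases before to 50 bases after a start, were found for 31 of the 39 genes. Asah1, Atp6v0d2, Atp6v1h, Cstb, Ctsb, Ctse, Ctsh and Npc1 had no entry. CACGTG, which reads the same on both strands, was present for 9 of the 31 genes (29.0%), against 8.09% of 27025 genes. The longer TCACGTG, sought on both strands and always overlapping the core, was present for 7 of 31 (22.6%), against 4.29%. The 9 were Atp6v1a, Ctsa, Ctsd, Ctsf, Ctsl, Glb1, Lamp1, Lgmn and Mcoln1. Of the 5 genes higher with Lyve1 in each library, Ctsd, Ctsl and Lamp1 held the core, Grn did not, and Ctsb had no entry. The match is a description of letters, not of a bound site. Windows of 60 bases are shown for those 3, for Lgmn, which was lower with Ear2 and with Hopx in each library, and for Ctsf, which was lower in IgG than in Matrigel macrophages. Each is written 5′ to 3′ on the strand of its gene, with the match farthest upstream in capitals:
Ctsd, chr7:142388018-142388077, minus strand: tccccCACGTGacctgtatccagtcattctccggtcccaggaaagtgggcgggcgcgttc
Ctsl, chr13:64370711-64370770, minus strand: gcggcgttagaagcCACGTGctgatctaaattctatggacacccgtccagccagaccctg
Lamp1, chr8:13159073-13159132, plus strand: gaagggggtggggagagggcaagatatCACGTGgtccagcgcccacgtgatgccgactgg
Lgmn, chr12:102439109-102439168, minus strand: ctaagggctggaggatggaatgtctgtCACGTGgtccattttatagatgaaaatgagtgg
Ctsf, chr19:4855059-4855118, plus strand: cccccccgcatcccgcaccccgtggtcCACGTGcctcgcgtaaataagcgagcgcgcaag
In Lamp1 the core occurred 4 times in the promoter and in Ctsd 2 times, and in the other 3 promoters shown 1 time. Lgmn had 2 promoter entries, of which the 1 shown held the core and the other did not. Its window lies inside the gene as annotated, chr12:102394084-102439813 on the minus strand. The Ctsl window likewise lies inside its annotated gene, chr13:64359337-64370890 on the minus strand. The Ctsd window overlaps the upstream end of its gene, chr7:142375911-142388038 on the minus strand. Those of Lamp1 and Ctsf lie upstream of their genes. In Ctsd, Lamp1 and Lgmn the core is part of the longer letters, and in Ctsl and Ctsf it is not.

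The Ctsl difference between the antibody and IgG libraries was then followed through the macrophage subsets, since the subsets made up different parts of each library. Among macrophages with Lyve1, Ctsl had 1109 CPM in the antibody library and 720 CPM in the IgG library, a ratio of 1.54 (1.42 to 1.67). With Ear2 it had 293 against 153 CPM, with Arg1 885 against 499 CPM, and with Hopx 561 against 258 CPM, a ratio of 2.18 (2.01 to 2.36). With none of the 4 it had 583 against 426 CPM, a ratio of 1.37 (1.28 to 1.46) that did not pass the rule. Ctsl was above the IgG level in 5 of 5 subsets and past 1.5-fold in 4 of them. Among all genes with at least 10 UMIs, 28.8%, 20.8%, 20.3%, 21.3% and 18.5% passed in either direction in the subsets in that order. The subsets with Lyve1, Ear2, Arg1 and Hopx share cells, and all 5 come from the same antibody and IgG libraries. They are thus not separate observations of the difference. Other members passed in some subsets, and their number in each subset is not given. Ctse was lower in the antibody library with Arg1 (4.84 against 8.09 CPM), with none of the 4 (11.9 against 19.1 CPM) and with Ear2 (15 against 24 UMIs, with an interval of the ratio, 0.314 to 1.28, that took in 1). Lyz1 was lower in the antibody library with Lyve1 (125 against 232 CPM) and with Hopx (644 against 1349 CPM), and higher with none of the 4 (406 against 264 CPM). Tfec was higher with Hopx (38.2 against 15.02 CPM) and Mitf with Lyve1 (64.3 against 36.3 CPM). Ctsf was lower in the antibody library with Hopx (7.38 against 12.29 CPM) and with none of the 4 (15.96 against 25.01 CPM). Glb1 was higher with Lyve1 (48.37 against 30.21 CPM). Atp6v0d2 and Atp6v0c also passed in some subsets.

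Several differences between the IgG and Matrigel libraries were uneven across subsets. The shares of all genes that passed in either direction were 28.1%, 27.2%, 32.6%, 24.2% and 26.5% with Lyve1, Ear2, Arg1 and Hopx and with none of them. Lyz1 had 237 against 1484 CPM with Arg1, a ratio of 0.160 (0.149 to 0.171), 1349 against 3698 CPM with Hopx and 2250 against 3994 CPM with Ear2. With Lyve1 it had 232 against 283 CPM and with none of the 4 it had 264 against 269 CPM, neither past the rule. Tfec was higher with Arg1, at 85.5 against 20.7 CPM, with Ear2, at 51.5 against 4.15 CPM, and with Hopx, at 15.02 against 5.95 CPM. With Lyve1 it stood at 58.4 against 51.8 CPM and with none of the 4 at 43.7 against 37.3 CPM. Ctss was above the Matrigel level in each subset, from 2908 against 2460 CPM with Ear2 to 3897 against 2191 CPM with Arg1. It did not pass the rule with Ear2 or with none of the 4 (2950 against 2128 CPM). Other members also passed upward in some subsets, among them Lgmn with Ear2 (824 against 313 CPM). With none of the 4, Atp6v0d2 (45.5 against 4.58 CPM) and Mitf (49.59 against 28.35 CPM) did so. The number of members in each subset is not given. Differences of these ratios between subsets were not tested.

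**Figure D4:**
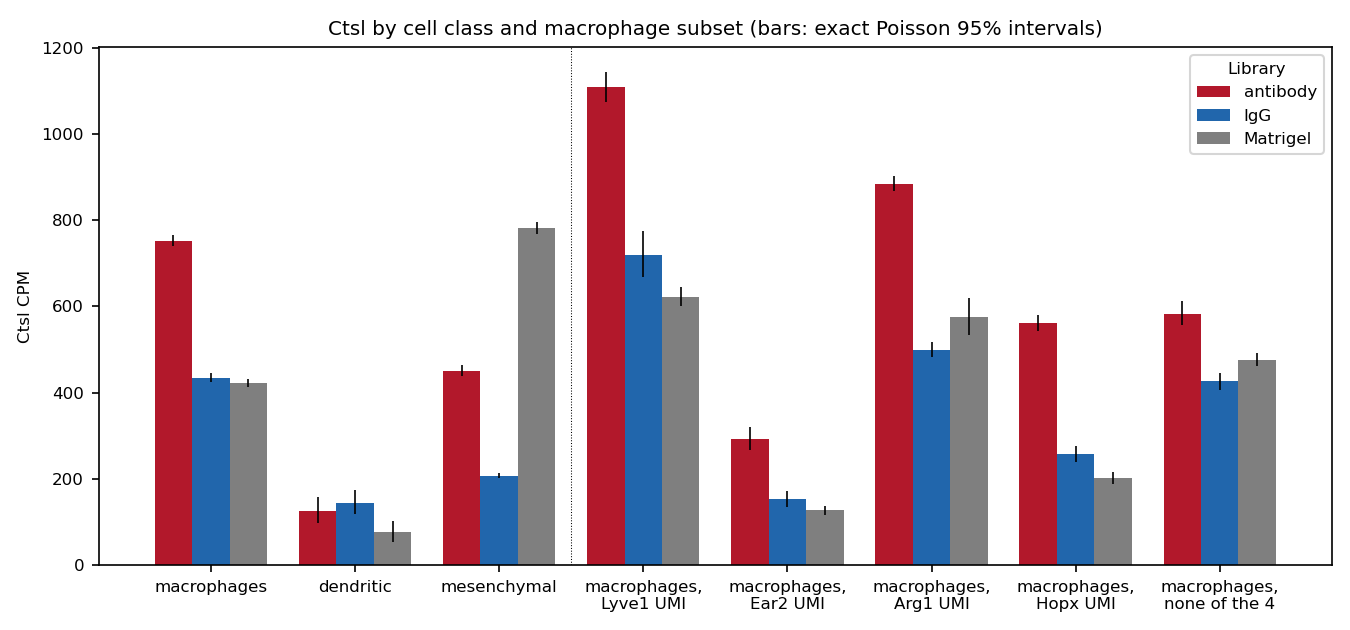
Ctsl level in CPM by library (antibody, IgG, Matrigel), in macrophages, dendritic cells and mesenchymal cells and in 5 macrophage subsets, with exact Poisson 95% intervals. The antibody bar is highest in macrophages and in each macrophage subset, and the Matrigel bar is highest in mesenchymal cells (782 CPM).

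In mesenchymal cells 36 of the 39 genes were measured in each comparison, and Ctse, Atp6v0d2 and Atp6v0c stayed under 10 UMIs. Antibody over IgG, 4 were higher and 2 lower, where 10.1% of all 13698 genes were higher and 12.6% lower, or 22.7% in either direction, and 14.0% of those with at least 100 UMIs. Ctsl had 451 CPM (438 to 464), 207 CPM (201 to 213) and 782 CPM (769 to 795) in the antibody, IgG and Matrigel libraries. The 3 levels lay apart, with the antibody library between the others. The ratio was 2.18 (2.09 to 2.27) for antibody over IgG and 0.265 (0.256 to 0.274) for IgG over Matrigel. After thinning, 36.8% (32.6 to 41.3), 18.9% (16.8 to 21.2) and 53.9% (51.5 to 56.2) of mesenchymal cells had a Ctsl UMI, while 91.7%, 81.3% and 95.1% had one unthinned, where the median cell held 18809, 17115 and 8786 UMIs.

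Mitf followed the same order, with 14.9, 7.42 and 16.2 CPM from 159, 171 and 277 UMIs, a ratio of 2.00 (1.60 to 2.502) for antibody over IgG and 0.459 (0.377 to 0.558) for IgG over Matrigel. Ctso, a widely expressed cysteine protease, had 20.0, 12.8 and 30.8 CPM, and Man2b1, the lysosomal alpha-mannosidase, had 63.0, 40.3 and 84.5 CPM. Both passed upward for antibody over IgG, with ratios of 1.56 (1.31 to 1.87) and 1.56 (1.42 to 1.73). The 2 lower genes were Ctsc, which activates serine proteases of blood cells, at 10.7, 18.8 and 11.1 CPM, and Tfec, with 3, 11 and 2 UMIs. Ctsc and Tfec stood under 10% of the macrophage level. Of the measured members 18 lay above and 18 below a ratio of 1, and the median log2 ratio of all genes was -0.08.

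For IgG over Matrigel, 2 mesenchymal genes were higher and 11 lower, where 15.9% of all 14067 genes were higher and 20.8% lower, or 36.7% in either direction, and 29.0% of those with at least 100 UMIs. The share of members in either direction was near that background. By direction, the share of members lower was above the background and the share higher was below it. The median log2 ratio was -0.27 for the members and -0.04 for all genes. Beside Ctsl, Mitf, Ctso and Man2b1 the lower genes included Psap at 554, 475 and 804 CPM, Grn at 194, 167 and 314 CPM, Lipa at 52.0, 48.0 and 87.3 CPM, and Cstb, a cytosolic cystatin, at 172, 116 and 177 CPM in the antibody, IgG and Matrigel libraries. In each of these 8 genes the IgG library was lowest and the Matrigel library highest. The remaining 3, Cd68, Lyz1 and Lyz2, and the 2 higher ones, Ctsc and Tfec, stood under 10% of the macrophage level in both libraries, Lyz1 for instance at 0.748, 1.04 and 6.77 CPM in the 3 libraries. Several abundant members did not pass: Cst3 had 660, 814 and 843 CPM, Ctsb 545, 484 and 627 CPM, Npc2, a carrier of cholesterol, 475, 362 and 436 CPM, and Ctsd, an aspartic protease, 312, 369 and 379 CPM.

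The mesenchymal gate also took in cells with cartilage transcripts, in unequal amounts. Col2a1, the main cartilage collagen, stood at 208, 1217 and 0.0583 CPM and Acan, which encodes aggrecan, at 271, 1150 and 0.0583 CPM in the antibody, IgG and Matrigel libraries. Leaving out each mesenchymal cell with a UMI of Col2a1, Acan or Col9a1 left 390, 447 and 1795 cells. The Ctsl ratio was then 1.62 for antibody over IgG and 0.420 for IgG over Matrigel, and that of Mitf 1.86 and 0.519. Ctso (1.32) and Man2b1 (1.44) no longer passed for antibody over IgG, and Cstb (0.797), Lipa (0.690), Psap (0.674) and Lyz2 (0.684) no longer passed for IgG over Matrigel. The numbers of members past the rule were 4 and 8 in place of 6 and 13.

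Dendritic cells were few, at 79, 128 and 146, and 34 of the 39 genes were measured. Antibody over IgG, 3 were higher and 4 lower, where 10.0% of all 7599 genes were higher and 19.2% lower, or 29.2% in either direction, and 14.7% of those with at least 100 UMIs. The lower genes were Ctsa, a carboxypeptidase that protects lysosomal glycosidases (155 against 247 CPM, and 138 CPM in the Matrigel library), Ctsb (428 against 686 CPM, and 382 CPM), Grn (357 against 594 CPM, and 487 CPM) and Npc1, a cholesterol exporter of the lysosome (19 against 51 UMIs). Those higher were Lyz1 (95.9 against 26.6 CPM, and 234 CPM in the Matrigel library), Asah1, the acid ceramidase (76.4 against 46.5 CPM), and Neu1, a sialidase (60.4 against 39.8 CPM), and the interval of the Neu1 ratio, 0.900 to 2.56, took in 1. The Lyz1 level in IgG dendritic cells was under 10% of the macrophage level, and how much of it free RNA gave was not tested.

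Between the IgG and Matrigel libraries, 14 of 34 genes were higher in dendritic cells and 4 lower, where 25.9% of all 7645 genes were higher and 15.3% lower, or 41.2% in either direction, and 38.5% of those with at least 100 UMIs. Of the 11 proteases measured 8 were higher. Among them Lgmn and Ctsd stood under 10% of the macrophage level in both libraries, and Ctsb did in the Matrigel library. So did Lamp1 in the Matrigel library and Lyz1 in the IgG library. How much of these levels free RNA gave was not tested. Ctss had 1799, 1952 and 795 CPM in the antibody, IgG and Matrigel libraries, a ratio of 2.46 (2.21 to 2.74) for IgG over Matrigel, and Ctsz, a carboxypeptidase, had 831, 813 and 323 CPM. Ctsc stood at 341, 283 and 149 CPM and Ctsl at 124, 143 and 75.6 CPM. Cstb had 343, 263 and 92.2 CPM and Lamp1 332, 230 and 84.8 CPM. In these 6 genes the Matrigel library was lowest. Cst3 ran the other way, with 11520 CPM (11241 to 11803), 12290 CPM (12041 to 12543) and 19278 CPM (18910 to 19651), and so did Man2b1, with 382, 348 and 953 CPM. Lipa and Lyz1 were the other 2 lower genes, at 57.1 against 118 CPM and 26.6 against 234 CPM. All 4 were highest in the Matrigel library. Psap (4860, 5573 and 6839 CPM), Lyz2 (1646, 1539 and 1504 CPM) and Npc2 (826, 879 and 741 CPM) were abundant and did not pass.

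The makeup of the dendritic gate also differed between the libraries. Ccr7, which marks migrating dendritic cells, stood at 643, 313 and 22.1 CPM in the antibody, IgG and Matrigel libraries, Ccl22, a chemokine of the same cells, at 590, 482 and 24.0 CPM, and Xcr1, a marker of type 1 dendritic cells, at 117, 162 and 420 CPM. Macrophage markers summed to 648, 1224 and 181 CPM and B cell markers to 160, 3.98 and 7.37 CPM in the same cells. The part of these in the dendritic cell differences was not tested.

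Wider lists of lysosomal genes were counted by the same rule. In macrophages, antibody over IgG, where 7.07% of all genes were higher and 12.1% lower, 0 of 15 other proton pump subunits passed, and 0 of 28 other acid hydrolases were higher and 2 lower, among them Arsb, a sulfatase (42.7 against 86.9 CPM). Of 16 other lysosomal membrane proteins 1 was higher, the metal transporter Slc11a1 (94.8 against 62.6 CPM), and 2 were lower. Of 10 genes of mannose 6-phosphate sorting 1 was higher, Igf2r, a receptor that carries hydrolases to lysosomes (27.0 against 11.1 CPM). Of 22 genes of nutrient sensing and autophagy 1 was higher, the autophagy receptor Sqstm1 (101 against 64.7 CPM), and 1 was lower. Of 7 other cathepsins and inhibitors 2 were higher and 1 lower, Cst7 (4.99 against 10.7 CPM).

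For IgG over Matrigel in macrophages, 13.0% of all genes were higher and 13.5% lower. Of the other cathepsins and inhibitors 5 were measured, and 3 were higher and 2 lower. The osteoclast markers, Ctsk among them, summed to 433 against 59.4 CPM in these macrophages, and their part in the counts was not tested. Ctsk had 133 against 4.52 CPM, the serpin Serpina3g 53.0 against 1.66 CPM, and Cst7, the cystatin of immune cells, 146 against 2 UMIs, a ratio of 103 (28.1 to 861). Serpinb1a (16.01 against 34.7 CPM) and Serpinb6a (192 against 325 CPM), inhibitors of serine proteases, were lower. Of 28 acid hydrolases Acp5 was higher (163 against 24.4 CPM) and the tripeptidase Tpp1 lower (120 against 207 CPM). Among the 15 pump subunits and 16 membrane proteins 0 passed. Of the sorting genes Sort1 was lower (5.07 against 9.29 CPM), and of the nutrient sensing and autophagy genes 1 was higher and 1, Flcn, was lower (31.2 against 54.2 CPM).

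In mesenchymal cells, IgG over Matrigel, 13 of 28 other acid hydrolases were lower and 1 higher, where 20.8% of all genes were lower and 15.9% higher, with a median log2 ratio of -0.45 against -0.04 for all genes. Col2a1 stood at 1217 against 0.0583 CPM in the same cells, and the part of cartilage cells in the counts of these lists was not tested. Arsb had 17.7 against 48.9 CPM and Sgsh, a sulfatase that degrades heparan sulfate, 5.29 against 14.1 CPM, while Galc was the gene that was higher, at 8.81 against 4.49 CPM. Igf2r stood at 58.1 against 155 CPM. Of 17 membrane proteins 3 were higher, among them Cd63 (1421 against 803 CPM), and 6 lower, among them Cd164 (149 against 317 CPM). Of 15 pump subunits 2 were higher, Atp6v1g1 (206 against 118 CPM) and Atp6v0e (321 against 213 CPM), and 3 were lower. Antibody over IgG, where 10.1% of all genes were higher and 12.6% lower, the hydrolases gave 1 higher, Arsb (26.8 against 17.7 CPM), and 1 lower of 28, and Sort1, a sorting receptor, had 1.78 against 7.203 CPM. In dendritic cells 9 of 14 pump subunits were higher and 0 lower for IgG over Matrigel, where 25.9% of all genes were higher and 15.3% lower. Ccr7 stood at 313 against 22.1 CPM and the macrophage markers at 1224 against 181 CPM in these dendritic cells, and their part in that count was not tested.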

How the data were processed

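UMI counts per gene and cell barcode were deposited by the authors for 3 single-cell libraries (droplet 3′ chemistry), made with Cell Ranger 3.0.2 against mm10, per the submitters' processing notes. For the annotation release, the sources used here give none. The counts are raw, so no normalization precedes the sums used here. A barcode needed 300 genes or more, 500 UMIs or more and a mitochondrial share of 15% or less, which removed 146, 107 and 26 (antibody, IgG, Matrigel). Scrublet in scanpy 1.11.5 marked 4, 3 and 2 cells by its own threshold, so top-scored cells were taken out at 0.8% per 1000 cells (285, 284 and 681 cells, seed 1).

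Gates used no gene among the 39. Macrophages are defined in the report. Dendritic cells had collagen UMIs under 1%, no Adgre1 UMI, and Flt3 or at least 2 of Xcr1, Clec9a, Cd209a, Zbtb46, Ccr7 and Ccl22, and were taken out of the macrophages. Mesenchymal cells had at least 2% collagen UMIs and under 0.01% UMIs of Csf1r, Adgre1 and Ptprc. UMIs were summed per class and library and divided by the class total (CPM). Intervals are conditional binomial for ratios, Poisson for levels and Clopper-Pearson for shares of cells, all exact, the shares after thinning each cell to 1000 UMIs, which left out 82, 113 and 233 macrophages, 2, 3 and 6 dendritic cells and 14, 14 and 57 mesenchymal cells. For log2 ratios 1 UMI was added to each sum. With 1 library per group there is no replicate, model or p-value.

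Genes with values in all 3 libraries are those with at least 100 UMIs in 1 library of the class and a ratio of at least 1.5 either way, and the 5 highest of each class. Other members named, and those named in the class and subset comparisons, were chosen after their values were seen. Of the wider lists up to 4 genes each could be named, by the highest and lowest ratios at 100 UMIs or more. Of 107 wider symbols, 106 were found. The members and lists were chosen with earlier results of these data known. Alternatives changed the filters, gates, doublet removal, weight of cells, scaling, minimum UMIs and classes. Coordinates are from GENCODE M21 (GRCm38), matched by gene ID, and promoters from RefSeq (GRCm38.p6). Calculations used python 3.11.15, numpy 2.4.6, scipy 1.17.1 and pandas 2.3.3, and the counting steps were tested on simulated data.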

Additional observations from a re-analysis of the deposited data

Results flagged for a closer look

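For IgG over Matrigel, 3 genes differed in opposite directions in 2 cell classes, and the difference between the classes was not tested. Ctsl had a ratio of 1.90 in dendritic cells and 0.265 in mesenchymal cells. Cstb had a ratio of 2.85 in dendritic cells and 0.652 in mesenchymal cells. Mitf had a ratio of 3.42 in dendritic cells, from 19 against 4 UMIs, and 0.459 in mesenchymal cells.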

How the results depend on the processing

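Of 76 recomputed counts of members past 1.5-fold, 73 stayed within 1.5 times the reported count. For dendritic cells, antibody over IgG, 11 members passed with no minimum of UMIs, against 7. For macrophages, antibody over IgG, 4 passed with each cell weighted equally, against 2. For mesenchymal cells, IgG over Matrigel, 8 passed without cells that had a UMI of Col2a1, Acan or Col9a1, an alternative chosen after seeing the data, against 13. The cause was not tested. Of 372 recomputed values of 40 member ratios with at least 100 UMIs in 1 of the sums, 351 stayed past 1.5-fold and 0 changed direction. These values include some that could not move. The alternatives that changed the minimum of UMIs left each ratio as it was. Leaving out cells with other lineages' markers left the mesenchymal cells unchanged. The Ctsl ratio for antibody over IgG ran from 1.59 to 1.89 in macrophages and from 1.62 to 2.33 in mesenchymal cells. The mesenchymal Ctsc ratio for IgG over Matrigel was 1.05 with classes from clusters and 1.41 with each cell weighted equally, the Lyz2 ratio 0.847 and the Cd68 ratio 0.691 with the stricter collagen threshold, and the Cstb ratio between 0.672 and 0.797 under 5 alternatives. For antibody over IgG in mesenchymal cells, classes from clusters gave 1.44 for Ctso and 1.46 for Man2b1, and equal weights gave 0.699 for Ctsc. In dendritic cells, IgG over Matrigel, equal weights gave 1.42 for Ctsa, 1.46 for Ctsb, 1.41 for Ctsl and 0.700 for Cst3. Median-ratio scaling showed the median gene between -0.19 and 0.10 log2 over the comparisons. Classes from clusters were not run for dendritic cells, with 20 and 43 cells in the antibody and IgG libraries, nor for macrophage subsets. No paired analysis was possible because each group was 1 library and no test was made. Counting intervals are narrow for abundant genes in macrophages and wide in dendritic cells, and no interval covers differences between animals.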
